A study of Mus musculus with 670 samples.

Results

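A set of 10 marrow stromal genes was followed in sorted cells of mouse long bones at 3 ages. They comprise the transcription factor genes Ebf1, Ebf2, Ebf3 and Foxc1, the niche factor genes Cxcl12, Kitl and Angpt1, the leptin receptor gene Lepr, the adhesion molecule gene Vcam1 and Esm1, which encodes a secreted proteoglycan. They were chosen by name, with earlier results of these data known, and all 10 members have a row among the 55604 gene rows of the count table. The data are SmartSeq2 libraries, in which the full-length cDNA of 1 sorted cell per plate well is sequenced. Cells came straight from digested bone, were purified by flow cytometry as skeletal stem cell populations, and received no culture and no treatment. The 3 ages are postnatal day 3, 2 months and 24 months, all from male mice. Strain, genotype, the number of animals and the surface markers of the sort are not given in the sources used here, so the spread between plates may be technical and an age counts as 1 sample without a test.

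In marrow, reticular stromal cells that carry the leptin receptor surround blood vessels and secrete CXCL12, a chemokine that holds blood stem cells in place, and KIT ligand, the product of Kitl, which keeps them alive. The EBF proteins are zinc-binding transcription factors. EBF1 is also required for B cells, EBF1 and EBF3 act in the marrow reticular cells, and EBF2 is known from brown fat and from bone precursors. FOXC1, a forkhead factor, acts in the reticular cells and also in cartilage.

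Reads are given as counts per 1000000 gene reads (CPM), from counts summed over the cells of a plate. An age's level is the mean of its plates ± SD. Cells with at least 1000 genes, at least 50000 reads and under 20% mitochondrial reads form the strict set: 68 at postnatal day 3 from plate 9, 15, 70 and 69 at 2 months from plates 1, 3 and 4, and 15 at 24 months from plates 2, 5 and 12 (5 cells each). Since few 24-month wells passed, values are also given for the wide set, wells of at least 500 genes under the same other limits. It holds 72 neonatal wells, 30, 78 and 76 wells on plates 1, 3 and 4, and 65 aged wells (21, 18 and 26 on plates 2, 5 and 12). Passing cells held 62919 to 5994911 gene reads, and the median number of genes was 2234.5, 1744.5 and 1134 at postnatal day 3, 2 months and 24 months. Spike-in RNA took 95.1% to 98.9% of the reads of the median well on the 24-month plates, 76% on plate 1 and 5.88% to 11.5% on the other plates. For shares of cells, each cell was thinned to 50000 reads, where 1 count stands for 20 CPM. A share is given with its exact 95% binomial interval, and where no cell held a count the limit given is 3 cells of the total; both cover counting error only.

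Chondrocyte markers set the 24-month cells apart, and fibroblast and tendon markers the neonatal ones. The 8 listed markers, Cnmd, Acan and Col2a1 among them, summed to 74110 CPM at postnatal day 3, to 55570 to 74640 CPM on the 2-month plates and to 297.9 to 3766 CPM on the 24-month plates. At 2 months 81.2% of cells held at least 3 of them, against 1 of 15 cells at 24 months. The 8 osteoblast markers summed to 26250 CPM at postnatal day 3, to 8137 to 20170 CPM at 2 months and to 8536 to 50300 CPM at 24 months. The 8 fibroblast and tendon markers, Scx and Postn among them, summed in the wide set to 4985 CPM at postnatal day 3, to 48.1 to 102.6 CPM at 2 months and to no more than 781 CPM on an aged plate, and at least 3 of them were held by 22 of 72 neonatal wells and by 0 wells at the other ages. These marker levels differ along with the members' values below, and their part in each result was not tested.

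Upstream windows are shown for Cxcl12, on which the co-detection results turn, and for Ebf3, the only member whose window held the EBF core. Each holds the 250 bases before the annotated start, 5′ to 3′ on the gene's own strand, from RefSeq on GRCm38.p6. The first precedes Cxcl12, the most abundant member, at chr6:117168285-117168534 on the plus strand. The second precedes Ebf3 at chr7:137314446-137314695 on the minus strand. Capitals mark the only match among the members' windows to CCCNNGGG, the core of the letters EBF proteins bind, which starts 21 bases before the start.
Cxcl12: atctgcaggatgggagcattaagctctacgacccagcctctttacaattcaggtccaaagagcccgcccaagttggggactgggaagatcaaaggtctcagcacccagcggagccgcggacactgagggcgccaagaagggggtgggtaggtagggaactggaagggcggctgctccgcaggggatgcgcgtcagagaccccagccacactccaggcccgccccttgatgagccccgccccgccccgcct
Ebf3: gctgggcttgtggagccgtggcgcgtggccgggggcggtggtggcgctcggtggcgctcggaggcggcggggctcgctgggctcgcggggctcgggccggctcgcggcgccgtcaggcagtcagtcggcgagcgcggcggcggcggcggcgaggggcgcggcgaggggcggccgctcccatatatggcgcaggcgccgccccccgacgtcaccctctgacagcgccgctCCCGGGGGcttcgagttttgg
The tables held 9 windows for 7 members and none for Ebf2, Vcam1 or Angpt1. CCCNNGGG was found on either strand in 1 of the 9, and in 11.8% of all 32851 windows. TATAAA lay in 1 of the 9, that of Kitl, 25 bases before its start, and in 12.4% of all windows, and CACGTG lay in 0 of the 9 and in 6.02%. No match overlapped another. A match describes these letters and is not a measured binding site.

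On GRCm38, with GENCODE M21 gene models, Cxcl12 spans chr6:117168535-117181367 and Ebf1 spans chr11:44617317-45008091, both on the plus strand. Ebf2 lies at chr14:67233292-67430918 and Ebf3 at chr7:137193673-137314445. Foxc1 lies at chr13:31806633-31812476, Lepr at chr4:101717404-101815352 and Kitl at chr10:100015630-100100416. Vcam1 lies at chr3:116109949-116129688, Esm1 at chr13:113209659-113218098 and Angpt1 at chr15:42424723-42676977. SmartSeq2 does not mark the strand, and Ebf1, Ebf2, Ebf3, Vcam1, Esm1 and Angpt1 overlap genes on the opposite strand, so reads of such partners cannot be told apart from theirs.

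Ebf1 was higher in the 24-month cells than at both younger ages. In the strict set its level was 156.7 CPM at postnatal day 3. It was 0.0485, 32.5 and 23.1 CPM on the 2-month plates 1, 3 and 4, and 1069, 1298 and 4759 CPM on the 24-month plates 2, 5 and 12. The 3 aged plates stood above the other 4, and the day 3 plate stood above all 2-month plates. The means were 18.6 ± 16.7 CPM at 2 months and 2375 ± 2068 CPM at 24 months (SD, n = 3 plates each). A count of Ebf1 was found in 11 of 68 thinned cells at postnatal day 3 (16.2%), in 12 cells at 2 months (7.79%) and in 7 of 15 at 24 months (46.7%, interval 21.3% to 73.4%). Among cells with a count after thinning, the median level from all reads was 501.5 CPM at postnatal day 3, 80.8 CPM at 2 months and 3362 CPM at 24 months. As a share of gene reads, Ebf1 was thus highest in positive aged cells. In the wide set the aged plates stood at 852.3, 1025 and 3383 CPM, and plate 1 at 2 months stood apart from its group at 573.8 CPM, beside 31.5 and 22.5 CPM on plates 3 and 4. The aged plates still lay above all younger ones, while the neonatal plate (155.4 CPM) now lay within the 2-month range, and 18 of 65 aged wells held a count (27.7%, interval 17.3% to 40.2%).

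Ebf2 and Ebf3 were scarce and uneven. Ebf2, the relative named above from fat and bone precursors, stood at 36.7 CPM at postnatal day 3, at 0, 0.0177 and 1.23 CPM on the 2-month plates and at 0, 0 and 67.2 CPM on the 24-month plates. The neonatal plate was above all 2-month plates, but 1 of its 3 positive cells held 83.3% of the reads. The aged value came from plate 12 alone, where 2 cells held it. Ebf3 stood at 1.71 CPM at postnatal day 3, at no more than 0.0832 CPM on any 2-month plate, and at 158.8, 6.90 and 0 CPM on plates 2, 5 and 12. Across the wide set Ebf3 reached 64.1, 122.5 and 0.363 CPM on the aged plates, all above the 2-month range of 0.0171 to 0.0973 CPM. It was detected in 5 of 65 aged wells, 2 of 72 neonatal wells and 1 well at 2 months.

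Foxc1 had another distribution. It stood at 46.5 CPM at postnatal day 3 and at 53, 155.8 and 105.8 CPM on the 2-month plates, and at 0, 0 and 229.7 CPM on the 24-month plates. The neonatal plate lay below all 2-month plates, and the aged plates lay on both sides of them. Foxc1 was found in 22 of 68 cells at postnatal day 3 (32.4%, interval 21.5% to 44.8%), in 72 cells at 2 months (46.8%, interval 38.7% to 55%) and in 1 of 15 at 24 months (6.67%, interval 0.169% to 31.9%). The whole aged signal came from that cell of plate 12. The aged plates of the wide set held 88.7, 1.59 and 303.9 CPM, and 9 of 65 aged wells held a count. In wells of 500 to under 1000 genes alone the order of the shares was opposite. Foxc1 was there in 8 of 50 aged wells (16%, interval 7.17% to 29.1%) and in 1 of 30 at 2 months (3.33%, interval 0.0844% to 17.2%). These intervals overlapped, as did the plates of the 2 ages.

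Cxcl12 reached the highest level of any member. In the strict set it stood at 229.1 CPM at postnatal day 3, at 0.146, 101.3 and 69.1 CPM on the 2-month plates and at 19961, 3611 and 0 CPM on the 24-month plates. Plates 2 and 5 lay far above every younger plate and plate 12, with no Cxcl12 in its 5 cells, lay below them, so the ages overlapped. The means were 56.8 ± 51.7 CPM at 2 months and 7857 ± 10636 CPM at 24 months, and 1 cell of plate 2 held 53.4% of the aged reads. Over the wide set all 3 aged plates were high, at 10348, 9133 and 6967 CPM, a mean of 8816 ± 1713 CPM. The younger plates of that set stood at 227.3 CPM (postnatal day 3) and at 1632, 99 and 67.1 CPM (2 months), below all aged plates. The 2-month mean of 599.3 ± 894.4 CPM rested on plate 1, where 1 well held most of the reads.

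Cells with Cxcl12 were a minority at every age. The thinned share was 19.1% at postnatal day 3 (13 of 68, interval 10.6% to 30.5%), 9.74% at 2 months (15 cells, interval 5.55% to 15.6%) and 26.7% at 24 months (4 of 15, interval 7.79% to 55.1%). The wide set gave 18.1%, 10.3% and 40%, the last from 26 of 65 wells (interval 28% to 52.9%) and apart from the 2-month interval of 6.33% to 15.7%. The level in wells with Cxcl12, a share of each well's gene reads and not an amount of RNA, differed more. Aged wells of the wide set held a median of 727 genes, against 2191.5 at postnatal day 3 and 1569 at 2 months. Spike-in RNA took most reads of the median well on the aged plates and on plate 1. The part of these differences in the Cxcl12 levels was not tested. Wells of the wide set with a Cxcl12 count after thinning held, from all reads, 54.7 to 4840 CPM at postnatal day 3 (median 1088), 2.61 to 25226 CPM at 2 months (median 571.8) and 56.4 to 70211 CPM at 24 months (median 14098). At least 10000 CPM was reached by 15 of 65 aged wells, 2 wells at 2 months and 0 of 72 neonatal wells, which allows a share of up to 4.17%.

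**Figure D1:**
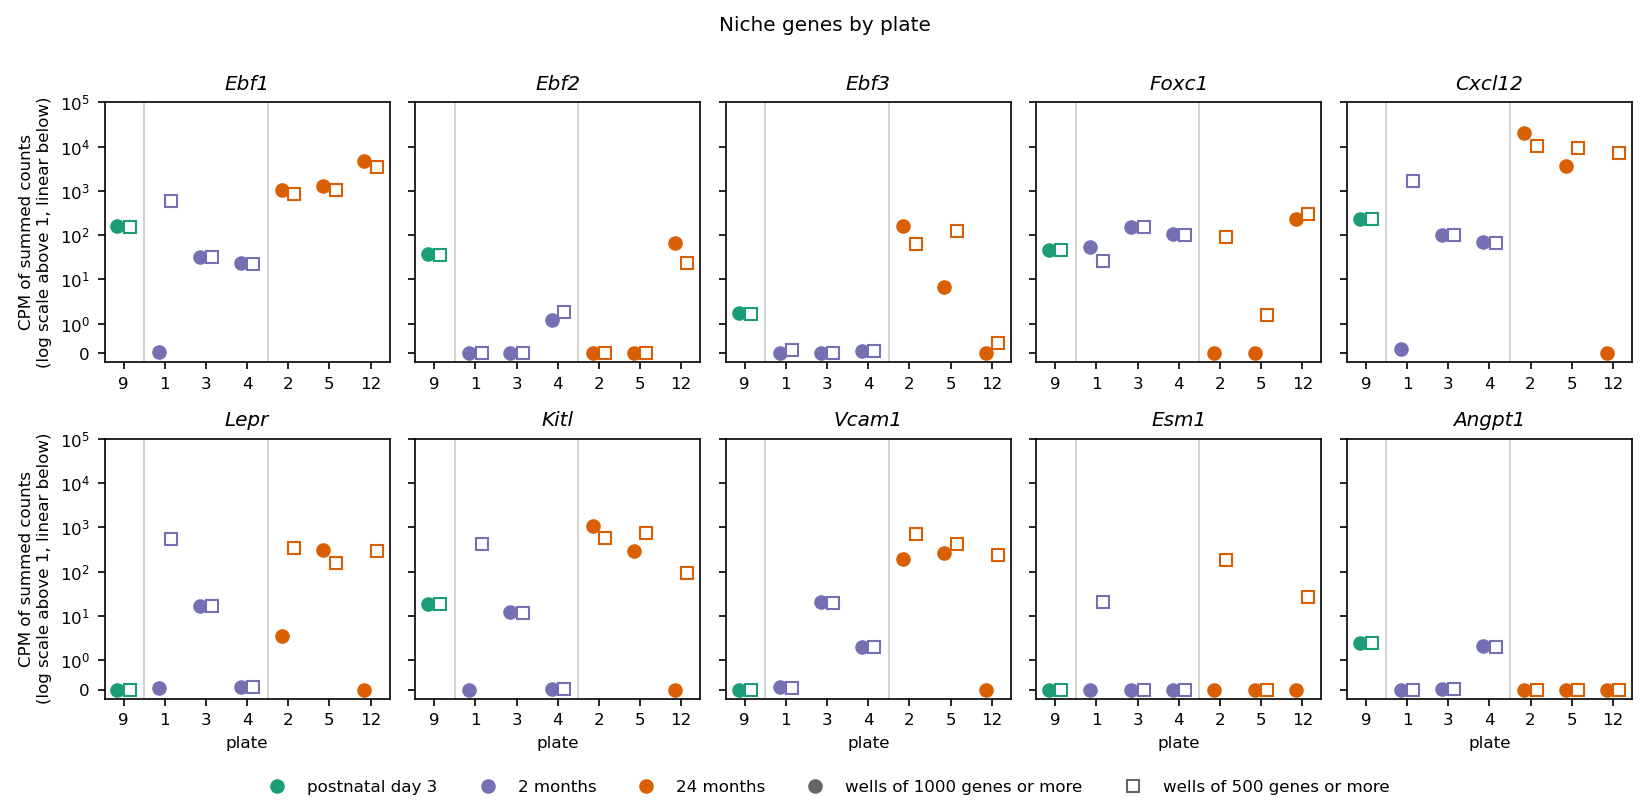
Level of each member on each of the 7 plates, in CPM on a log scale, for the strict and the wide set. Each point is a plate and colours mark the age; Ebf1 is higher on all 3 aged plates in both sets, and Cxcl12 on all 3 only in the wide set.

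Kitl, the ligand of the KIT receptor, stood at 18.3 CPM at postnatal day 3, at 0, 12.2 and 0.0208 CPM on the 2-month plates and at 1059.5, 293.0 and 0 CPM on the 24-month plates. Plates 2 and 5 were above all younger plates and plate 12 was at 0. Counting the wide set, the aged plates held 563.1, 729.6 and 92 CPM and plate 1 at 2 months held 428.4 CPM, so these ages overlapped. Kitl was detected in 10 of 65 aged wells, 5 wells at 2 months and 3 of 72 neonatal wells.

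Lepr and Vcam1, which mark adult reticular cells, had no read at postnatal day 3. With 0 of 68 cells, a share of up to 4.41% is allowed for each. Vcam1 stood at 0.0970, 20.5 and 2.00 CPM on the 2-month plates and at 190.9, 268.6 and 0 CPM on the aged plates, with plate 12 again the low one. Its aged levels in the wide set were 693.2, 426.8 and 239.6 CPM, all above the 2-month range of 0.0730 to 19.9 CPM, and 13 of 65 aged wells held it against 5 wells at 2 months. For Lepr the 2-month plates gave 0.0485, 17 and 0.104 CPM and the aged plates 3.60, 299.8 and 0 CPM. It reached 341.4, 154.7 and 292.8 CPM on the aged plates of the wide set, but plate 1 at 2 months held 548.5 CPM, of which 1 well gave nearly all, and the ages overlapped. Lepr was found in 9 of 65 aged wells, 6 wells at 2 months and 0 of 72 neonatal wells.

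Esm1 and Angpt1 were rarely detected. Esm1 had no read in any cell of the strict set. In the wide set 4 aged wells and 1 well at 2 months held reads of it. After thinning it was found in 3 wells, at 3216 CPM on plate 2, 613 CPM on plate 12 and 379 CPM on the 2-month plate 1. Angpt1, a ligand of the endothelial receptor encoded by Tek, stood at 2.46 CPM at postnatal day 3 and at 0, 0.0177 and 2.04 CPM on the 2-month plates. It had no read in the aged wells of either set, and 0 of 65 wells allows a share of up to 4.62%.

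**Figure D2:**
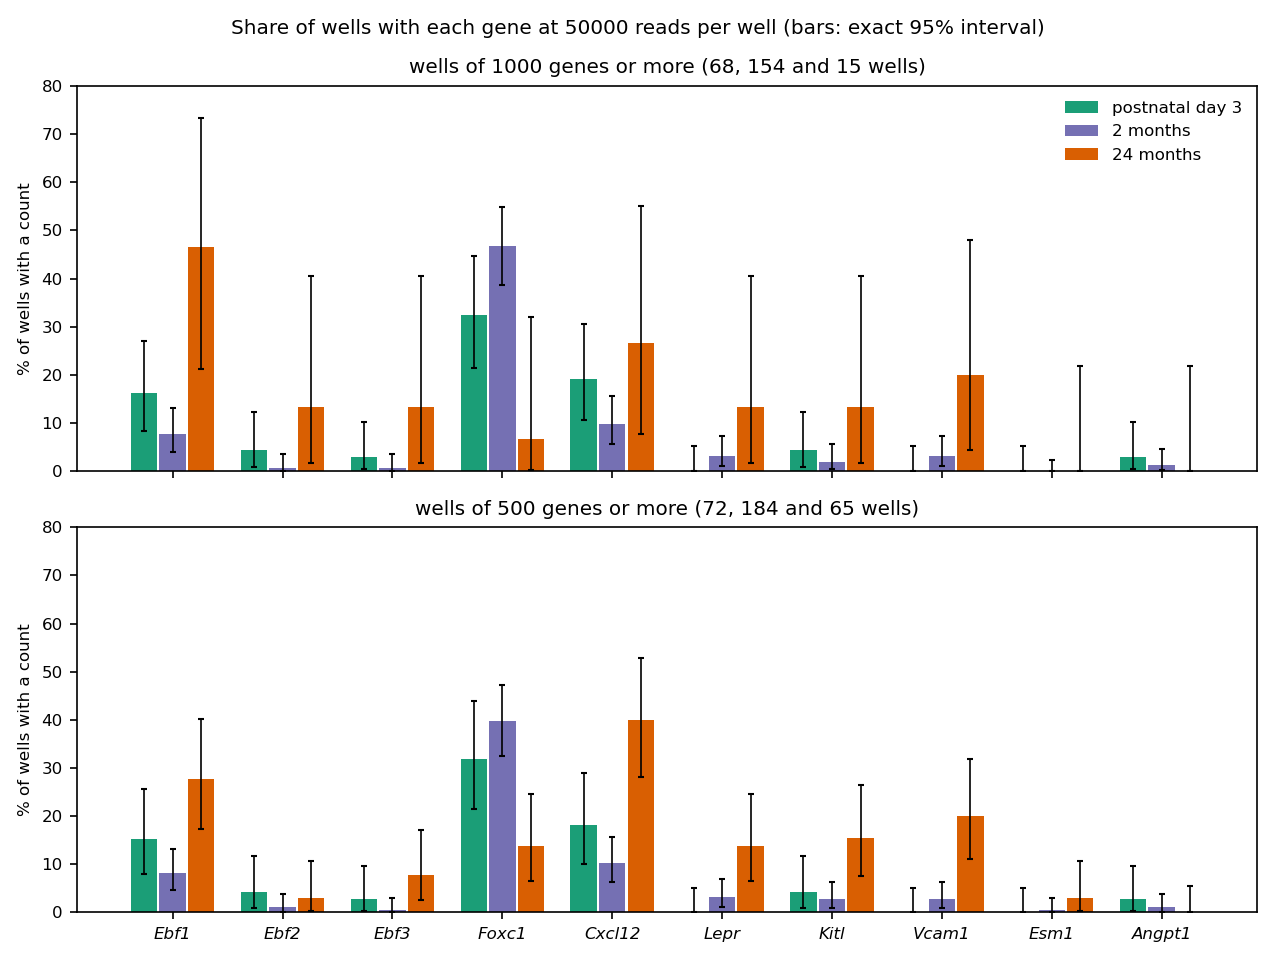
Share of cells with at least 1 count of each member after thinning to 50000 reads, by age, with exact 95% binomial intervals, for both sets of wells. Foxc1 is the most often detected member at 2 months (46.8%) and Cxcl12 the most often detected at 24 months in the wide set (40%).

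Per kilobase of exon, as mean levels, the order of the members' levels in the strict set began with Cxcl12 (28.02), Ebf1 (16.1) and Foxc1 (7.96 CPM per kb) at postnatal day 3. At 2 months it began with Foxc1 (17.9), Cxcl12 (6.95) and Ebf1 (1.90 CPM per kb), and at 24 months with Cxcl12 (961.0), Ebf1 (243.5) and Kitl (76.3 CPM per kb). At 24 months the plates of Cxcl12 ran from 0 to 2441 and those of Ebf1 from 109.5 to 487.9 CPM per kb, so these neighbours did not differ beyond their spread. Foxc1 and Cxcl12 at 2 months also overlapped, with plates from 9.07 to 26.7 and from 0.0178 to 12.4 CPM per kb. At 2 months in the wide set Foxc1 (15.98) came after Cxcl12 (73.3), Lepr (26.7), Kitl (24.8) and Ebf1 (21.4 CPM per kb). In the aged wells of the wide set the order was Cxcl12 (1078), Ebf1 (179.7), Kitl (78.1), Vcam1 (51.1), Lepr (37.3), Esm1 (32.7), Foxc1 (22.5), Ebf3 (6.75) and Ebf2 (1.10 CPM per kb), with Angpt1 at 0.

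A gene was called higher or lower between ages where it met 3 limits. Its level was at least 10 CPM at the higher age, the mean CPM differed at least 2-fold and the plates of the ages did not overlap. For the log2 folds alone 1 CPM was added to each mean. For 24 months against 2 months in the strict set, 1 of 8 members with enough reads was higher, Ebf1, with a log2 fold of 6.92. None was lower, and 1.55% of 8791 genes were higher and 29.6% lower by the same rule. Cxcl12 (7.09), Kitl (6.47), Ebf3 (5.76), Vcam1 (4.17), Ebf2 (4.05) and Lepr (3.93) had log2 folds above 0 with overlapping plates, and Foxc1 had −0.45. The members' median was 4.97 and that of all genes tested −1.57. Without plate 12 the count was 5 members higher, beside 3.97% of 8616 genes, and 1 lower, Foxc1, beside 37.2%. That plate therefore decided most of these calls. The wide set had 4 of 8 members higher, beside 3.24% of 9718 genes, and 0 were lower, beside 17.5%. They were Vcam1 (5.78), Ebf3 (5.89), Cxcl12 (3.88) and Ebf1 (3.06), and the members' median was 3.11 against −0.11 for all genes. Leaving out 1 plate at a time gave log2 folds of 2.16 to 5.97 for Ebf1 and 3.35 to 6.71 for Cxcl12, both highest without plate 1. Without that plate the count was 6, with Lepr and Kitl, beside 4.34% of 9850 genes. The folds of Kitl (1.65), Lepr (0.48), Foxc1 (0.49) and Esm1 (3.17) came with overlapping plates.

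For postnatal day 3 against 2 months, 4 of 5 members in the strict set were higher, where 28.2% of 9642 genes were higher. They were Ebf2 (4.74), Ebf1 (3.01), Cxcl12 (1.99) and Kitl (1.93 on the log2 scale). Foxc1 was the 1 lower member (−1.16), where 10.2% of genes were lower. Of these, in the wide set, only Ebf2 kept its call (4.54) beside 27.6% of 9803 genes, and Lepr was lower (−7.57) beside 11.3%. The neonatal reads of Ebf2 came from 3 wells, 1 of which held 83.3% of them. For Kitl, 1 of 3 neonatal wells held 92.1% of the reads. The folds of Ebf1, Cxcl12 and Kitl became −0.43, −1.40 and −2.94 in the wide set. Without plate 1 the count returned to 4 higher, beside 25% of 9836 genes. The lower call of Lepr also rested on plate 1, where 1 well held most of the 2-month reads. Without that plate the fold was −3.21 and no call was made, and Foxc1 and Vcam1 were lower, beside 19.2% of genes.

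For 24 months against postnatal day 3, Ebf1 was higher in the strict set (log2 fold 3.91), beside 2.61% of 9050 genes, and no member was lower, beside 53.7%. Over the wide set 5 of 9 members were higher, beside 6.37% of 9802 genes: Vcam1 (8.83), Lepr (8.04), Cxcl12 (5.27), Kitl (4.59) and Ebf1 (3.49). Ebf2 was lower (−2.12), beside 37.3%, and 1 well held 83.3% of its neonatal reads. Plates 2, 9 and 12 were all in batch 3 of the labels. Within that batch the 24-month folds over postnatal day 3 in the wide set were 5.25 for Cxcl12, 3.76 for Ebf1, 4.10 for Kitl, 8.31 for Lepr, 8.87 for Vcam1 and −1.59 for Ebf2. Foxc1 (2.06) and Esm1 (6.70) were also called higher there, without plate 5, which made 7 members, beside 12.3% of 9682 genes. Ebf2 was the 1 lower member, beside 44.5%. In the strict set the fold of Ebf1 within that batch was 4.21. No batch held 2-month plates together with plates of another age. Age and batch therefore cannot be told apart where 24 months or postnatal day 3 is set against 2 months. In wells of 500 to under 1000 genes alone, Cxcl12 and Vcam1 were higher at 24 months than at 2 months, beside 7.67% of 7589 genes, and 0 members were lower, beside 1.69%. Of the neonatal plate 4 such wells existed: against 2 months 1 member, Foxc1, was higher there, beside 23.7% of genes, and 0 lower, beside 10.5%, and 6 members were higher at 24 months than in these 4 wells, beside 19.6%, and 0 lower, beside 16.4%. The 3 comparisons share their plates, and their calls are not independent of each other.

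Ebf1 and Cxcl12 were often found in the same cells. Across ages, 13 of 30 cells with Ebf1 held Cxcl12 (43.3%, interval 25.5% to 62.6%), against 19 cells without Ebf1 (9.18%, interval 5.62% to 14%). The share was larger at each age, with 6 of 11 against 7 of 57 at postnatal day 3, 4 of 12 (33.3%) against 7.75% of the others at 2 months, and 3 of 7 against 1 of 8 at 24 months, but within each single age the intervals overlapped. For the wide set it was 23 of 44 (52.3%, interval 36.7% to 67.5%) against 35 others (12.6%, interval 8.96% to 17.1%). At 24 months Cxcl12 was nonetheless common without Ebf1: 15 of its 26 wells had no Ebf1 count, and 11 of 18 Ebf1 wells held Cxcl12 against 15 of 47 others. All of these cells were thinned to the same depth, while cells of 1 plate share their preparation.

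The wells with Kitl mostly held Cxcl12 as well, and at 24 months so did those with Lepr or Vcam1. In the wide set, over all ages, Cxcl12 was found in 14 of 18 Kitl wells (77.8%, interval 52.4% to 93.6%) against 44 of 303 without Kitl (14.5%). It was found in 10 of 15 Lepr wells (66.7%) against 48 of 306 (15.7%), and in 11 of 18 Vcam1 wells (61.1%) against 47 of 303 (15.5%). At 24 months alone 9 of 10 Kitl wells, 8 of 9 Lepr wells, 10 of 13 Vcam1 wells and all 5 Ebf3 wells held it, beside 40% of all aged wells. At 2 months it was in 3 of 5 Kitl wells, 2 of 6 Lepr wells and 1 of 5 Vcam1 wells. In contrast, Cxcl12 was in 17 Foxc1 wells (16.2% of them) and in 41 others (19%) over all ages, although at 24 months alone it was in 5 of 9 Foxc1 wells and 21 of 56 others. Of the 45 pairs of members, 25 were seen together in at least 1 cell of the strict set and 32 in at least 1 well of the wide set.

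**Figure D3:**
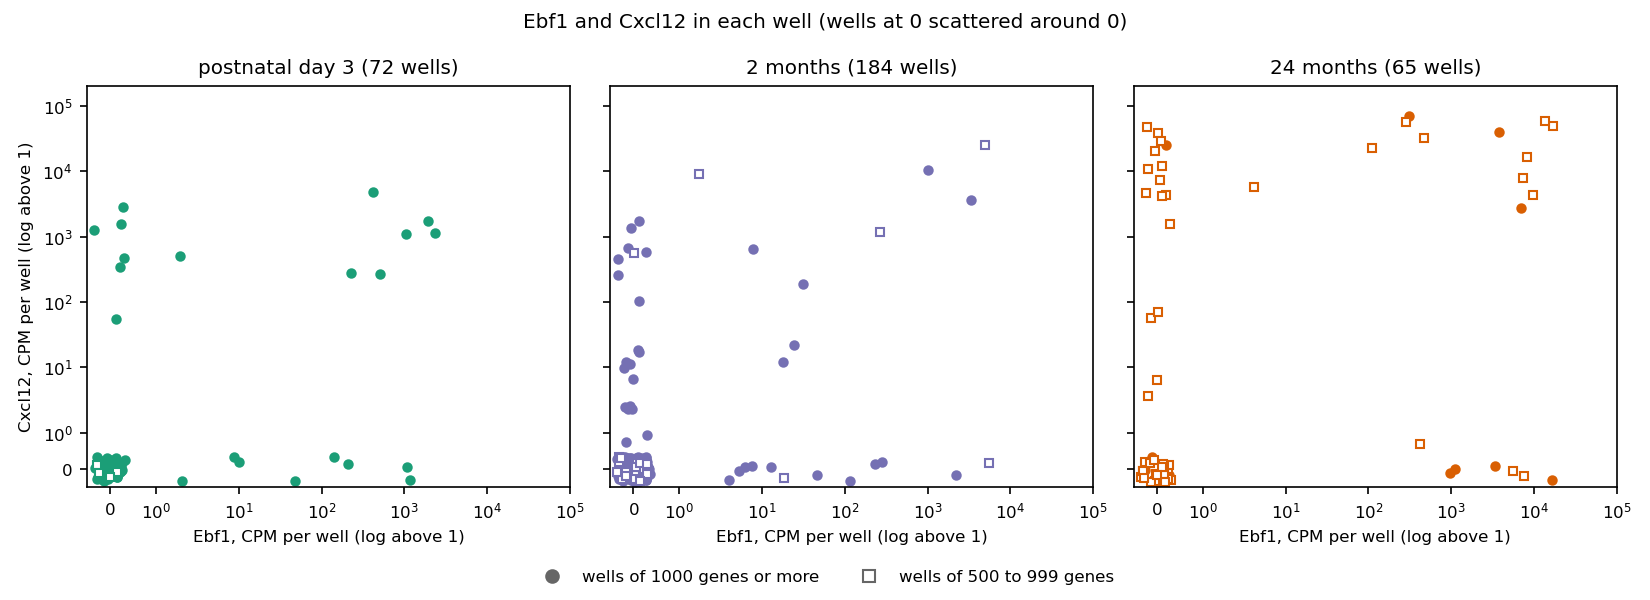
Ebf1 against Cxcl12 in each well of the wide set, 1 panel per age, both in CPM of all reads on axes that are logarithmic above 1; wells at 0 are scattered around 0, and open squares are wells of 500 to under 1000 genes. Wells high in both genes lie mostly at 24 months, and many aged wells hold Cxcl12 with no Ebf1.

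Most cells held few members. The median was 1 of 10 at each age, and 38.2%, 42.2% and 33.3% of cells held none at postnatal day 3, 2 months and 24 months. At least 3 members were found in 3 of 68 neonatal cells, 4 cells at 2 months (2.60%) and 4 of 15 at 24 months. These were in the wide set 3 of 72 wells, 5 wells (2.72%, interval 0.888% to 6.23%) and 15 of 65 (23.1%, interval 13.5% to 35.2%). The aged wells with at least 3 members came from all 3 plates, 4 on plate 2, 5 on plate 5 and 6 on plate 12.

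Some wells held several members together, up to 6 of the 10. A 24-month well of plate 5 with 811 genes held 6 members: Cxcl12 at 57154, Kitl at 7247, Ebf3 at 2271, Lepr at 893, Vcam1 at 454 and Ebf1 at 283.4 CPM. On plate 2 a cell with 1079 genes held Cxcl12 at 70211 CPM with Vcam1 at 1089, Ebf3 at 958 and Ebf1 at 313 CPM, together with Adipoq, which encodes adiponectin, at 1689 CPM and the haptoglobin gene Hp at 6457 CPM. The combination was also present at 2 months, in 1 cell of plate 3 that held Cxcl12 at 10357, Vcam1 at 3044, Lepr at 1510, Ebf1 at 1019 and Kitl at 544 CPM, again with Adipoq (2272 CPM) and Hp (13632 CPM). It was not seen at postnatal day 3: the 6 neonatal cells with both Ebf1 and Cxcl12 held no Lepr or Vcam1 and 0 held the chondrocyte gene Cnmd. Of the 13 neonatal cells with Cxcl12, 11 held at least 3 fibroblast and tendon markers, against 10 of 55 others, and 0 held 2 or more osteoblast markers. Of the 11 neonatal cells with Ebf1, 7 held at least 3 fibroblast and tendon markers, against 14 of 57 others.

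**Figure D4:**
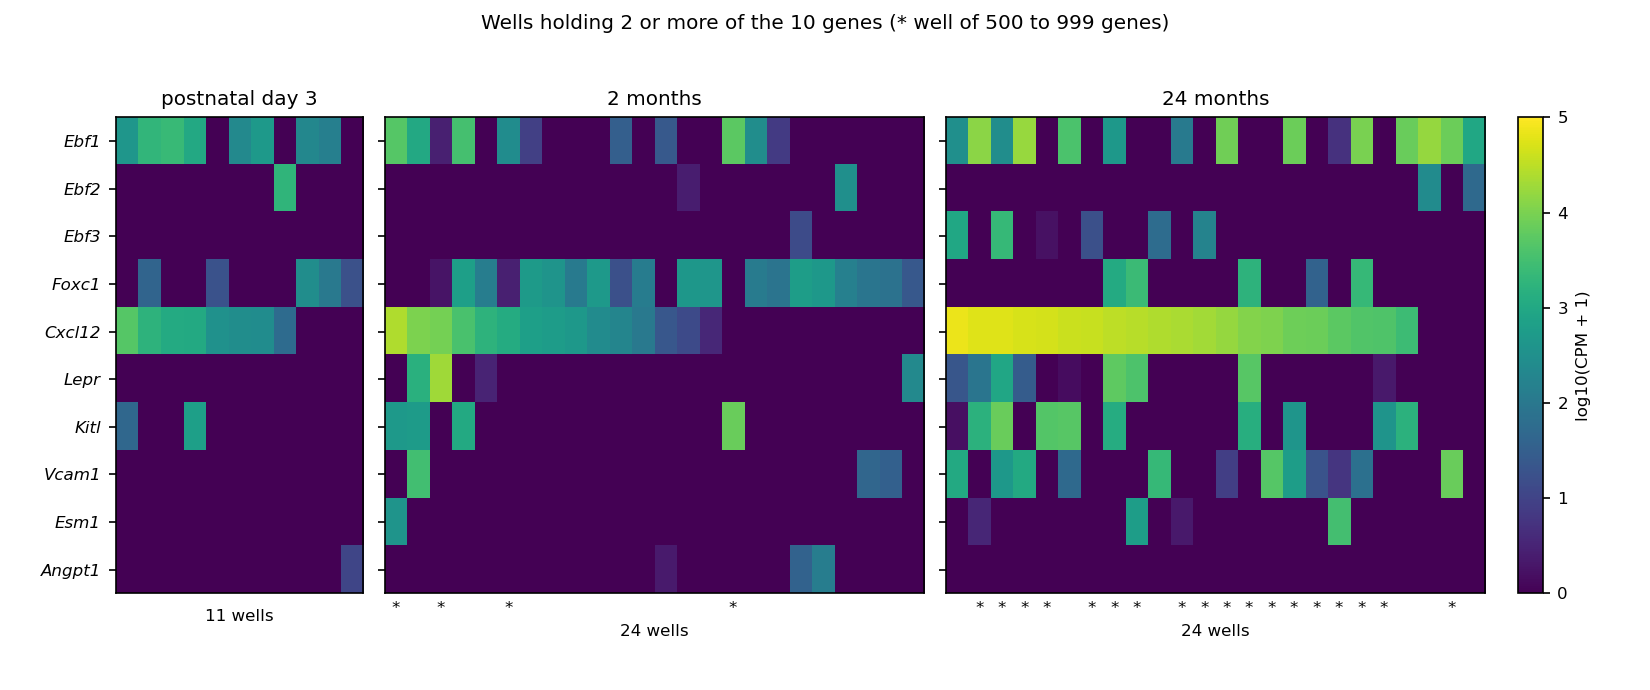
Wells in which at least 2 members were detected after thinning, 11 neonatal, 24 at 2 months and 24 at 24 months, coloured by log10(CPM + 1) of all reads; an asterisk marks wells of 500 to under 1000 genes. Neonatal wells have no Lepr or Vcam1, and most aged wells combine Cxcl12 with other members, while 2 cells of plate 12 hold Ebf1 and Ebf2 without it.

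Ebf1 was also found without Cxcl12. At 24 months 4 cells of the strict set, 3 on plate 12 and 1 on plate 2, held Ebf1 without Cxcl12, at 16428, 3362, 1128 and 972 CPM. All 4 held Prg4, the lubricin gene of joint surface cells, at 1910, 3552, 674 and 24489 CPM in the same order, while 0 of the 3 cells with both Ebf1 and Cxcl12 did. Prg4 was picked after its values were seen. Ebf2 was also found in 2 of the 4, at 256.1 and 51.2 CPM, and Kitl, Lepr and Vcam1 in 0. In the wide set Prg4 was in 4 of the 7 aged wells with Ebf1 alone and in 0 of the 26 with Cxcl12, and also in 6 of the 32 with neither gene. At 2 months Prg4 did not divide the Ebf1 cells in this way, being in 2 of the 4 strict cells with both genes and 2 of the 8 with Ebf1 alone.

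Foxc1 was found more often in cells that held the cartilage marker Cnmd, which encodes chondromodulin, and Ebf1 more often in cells that did not. At 2 months Foxc1 was found in 58 cells with Cnmd (55.2%, interval 45.2% to 65%) and in 14 of 49 without it (28.6%, interval 16.6% to 43.3%). At postnatal day 3 these were 18 of 42 (42.9%) and 4 of 26 (15.4%), with overlapping intervals. For Ebf1 the order was opposite, at 1 of 42 with Cnmd (2.38%) and 10 of 26 without (38.5%) at postnatal day 3, and at 4 cells (3.81%) and 8 of 49 (16.3%) at 2 months; the intervals were apart at postnatal day 3 and overlapped at 2 months. Cxcl12 was in 2 of 42 (4.76%) and 11 of 26 (42.3%) neonatal cells, and in 8 cells with Cnmd (7.62%) and 7 of 49 without (14.3%) at 2 months, where the intervals overlapped. None of the 15 aged cells held Cnmd. Cells with Cnmd had a median of 778545 reads at 2 months and those without 540181 before thinning.

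**Figure D5:**
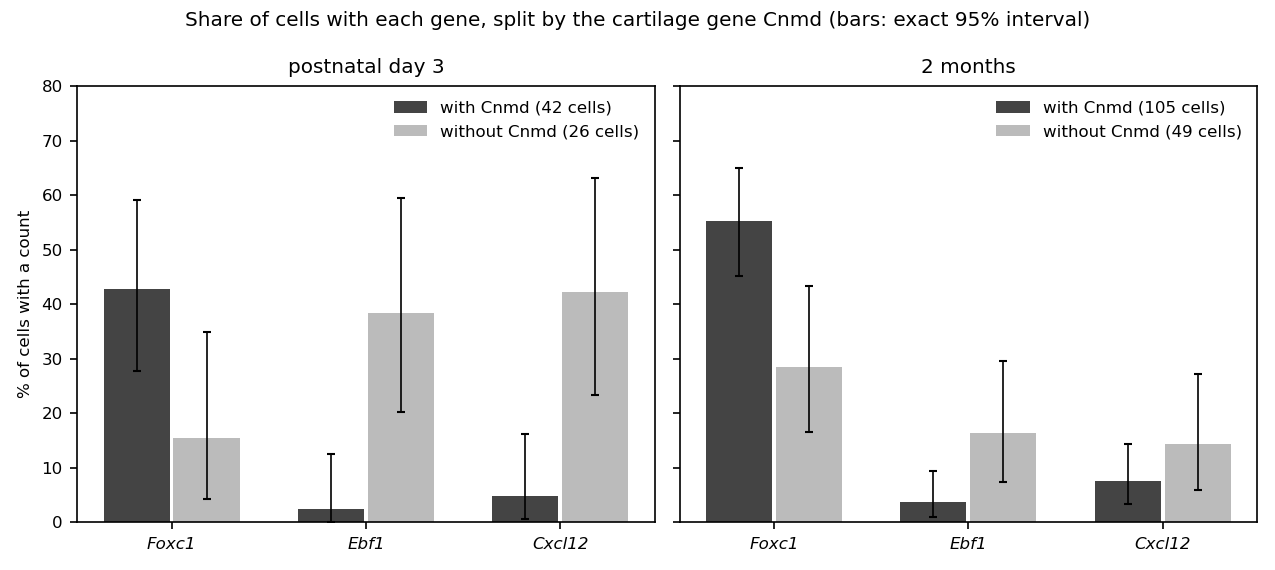
Share of cells with Foxc1, Ebf1 or Cxcl12 among cells with and without a count of Cnmd, at postnatal day 3 and 2 months, after thinning, with exact 95% binomial intervals. Foxc1 is more often found with Cnmd (55.2% against 28.6% at 2 months), and Ebf1 more often without it.

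Blood and endothelial markers were at 0 in the aged cells of the strict set, but blood markers were present in a few aged wells of the wide set. EBF1 is a B cell factor, and the B cell genes Cd79a and Pax5 had 0 counts in the 15 aged cells, as had the 8 markers of other blood cells. In the aged wells of the wide set Cd79a stayed at 0 counts and Pax5 reached no more than 66.2 CPM on a plate. The other blood cell markers reached 2655 CPM on an aged plate there, and 3 of 65 wells held at least 3 of them, 1 with Ebf1 and 0 with Cxcl12. Erythroid markers reached 2128 CPM, and 2 of 65 wells held at least 3, 0 with Ebf1 and 1 with Cxcl12. No aged well of the wide set held 3 smooth muscle and pericyte markers or 3 Schwann cell markers. Vcam1, Esm1 and Kitl are also endothelial genes, and all 8 endothelial markers, Pecam1 and Kdr among them, had 0 counts in the aged wells of both sets. Of the 26 aged wells with Cxcl12, 12 held at least 3 osteoblast markers, beside 27 of all 65 aged wells (41.5%). Of the 26, 0 held 2 or more chondrocyte markers. At least 1 adipocyte marker was in 8 of the 26 and in 1 of the 39 other aged wells. No aged well held 3 of the 8 adipocyte markers, and Plin1, Cidec, Pparg and Fabp4 had 0 counts in all 65.

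Other marrow stromal genes were compared between aged wells with and without Cxcl12, from a list of 20. Igfbp4, which encodes a binding protein of insulin-like growth factors, was in 14 of 26 Cxcl12 wells and 0 of 39 others. Its relative Igfbp5 was in 18 of 26 and 7 of 39, the growth factor gene Gas6 in 16 of 26 and 5 of 39, and the apolipoprotein gene Apoe in 16 of 26 and 7 of 39. Adipoq, also on the adipocyte list, was in 7 of 26 and 0 of 39. Others of the list were no more frequent with Cxcl12, as with Spp1, the osteopontin gene, in 18 of 26 and 26 of 39, Pdgfra in 2 of 26 and 7 of 39 and Vcan in 0 of 26 and 2 of 39. Ackr3, which encodes the scavenging receptor of CXCL12, was in 0 of the 26 and 6 of the 39, with overlapping intervals (0% to 13.2% and 5.86% to 30.5%). At postnatal day 3 Ackr3 was instead in 4 of 13 Cxcl12 wells and 7 of 59 others.

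By the size rule, 24 months against 2 months, 5 of 17 listed stromal genes with enough reads were higher in the wide set (Pdgfrb, Gas6, Hp, Igfbp4 and Igfbp5), beside 3.24% of all genes, and 0 were lower, beside 17.5%. Their median log2 fold was 2.84, against −0.11 for all genes. In the strict set 2 of 15 were higher, Csf1 and Tgfbr3, beside 1.55% of all genes, and 0 lower, beside 29.6%. Of the listed receptors and partners, 1 of 9 was higher (Angpt2) and 2 were lower (Itga4 and Socs3) in the wide set, beside the same 3.24% and 17.5%. Of 7 in the strict set, 1 was higher (Ackr3), beside 1.55%, and 1 lower (Socs3), beside 29.6%. Itga4 encodes a chain of the receptor of VCAM1, and Socs3 an inhibitor that acts on leptin receptor signalling. The call of Itga4 lay at the limit of 10 CPM. Its 2-month mean in the wide set was 10.04 CPM, with plates from 1.32 to 26.9 CPM, and its strict-set mean was 1.15 CPM. Socs3 stood at 94.9 CPM at postnatal day 3, 1942 CPM at 2 months and 254.7 CPM at 24 months in the strict set. Of 7 relatives of the factors with enough reads, 0 were higher and 0 lower in the wide set, beside the same 3.24% and 17.5%. Of 6 in the strict set, 1 was higher (Prrx1), beside 1.55% of all genes, and 1 lower (Zfp423), beside 29.6%. Against 2 months, postnatal day 3 had 5 of 7 relatives higher in the strict set (Foxc2, Zfp423, Prrx1, Prrx2 and Zfp521), beside 28.2% of all genes, and 0 lower, beside 10.2%. The wide set had 4 of 7 higher there, the same genes without Prrx1, beside 27.6%, and 0 lower, beside 11.3%.

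The genes whose thinned counts were most like those of Cxcl12 over all cells of the strict set were Igf1, Igfbp4, Rbms3, Ecm1 and Ifitm3, among 7406 genes ranked, with Spearman rho from 0.50 down to 0.41. For Ebf1 they were Ifitm3, Serping1, Ecm1, Fbln5 and Mfap5, from 0.48 down to 0.38. Ecm1 and Ifitm3 were on both lists. Within single ages the values differed. For the 5 genes of Cxcl12, rho ran from 0.408 to 0.764 at postnatal day 3. It ran from 0.153 to 0.395 at 2 months and from 0.261 to 0.891 at 24 months. For Ebf1 these ranges were 0.354 to 0.531, 0.242 to 0.419 and 0.255 to 0.455. The last range is without Mfap5, which stood at 0 CPM at 24 months. Over all cells Cxcl12 and Ebf1 had a rho of 0.36 with each other, and Foxc1 had −0.01 with Cxcl12 and −0.14 with Ebf1. These are descriptions of sparse counts in cells that share plates, and most cells are at 0 for both genes of a pair.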

How the data were processed

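The authors deposited 1 table of expected counts per gene and well, which they made, per the submitters' processing notes, with bcl2fastq 2.18, STAR 2.4 and RSEM 1.2.21 on GRCm38.p6; the annotation release, strand setting and filters are not given in the sources used here. Of the gene values above 0, 15.1% were not whole, and all were rounded. A set of 92 spike-in rows was kept out of totals, and 1 value column with no matching label stayed out. Wells took age, plate and batch from their labels, and 670 wells were used; 0 index pairs occurred on more than 1 plate. Counts were summed per plate, scaled to CPM and averaged over the plates of an age, with 1 CPM added before log2. Shares and co-detection used wells thinned to 50000 reads (seed 1). With 1 sample per age there is no test and no p-value. The 10 members, the 3 gene lists, the marker lists and the size rule were chosen with earlier results of these data known. All members are named; list genes are named only where they met the size rule, were at 0 at all ages or reached 100 CPM at an age; the 5 genes most like Cxcl12 and Ebf1 were ranked among genes found in at least 5% of cells. The wells of 500 to under 1000 genes, the left-out plates in the set of at least 500 genes and the batch 3 values were added after seeing the data. The count over the whole B cell list is not reported here. Only the size rule and the thinning were tried out beforehand. The size rule was run on simulated plates of equal depth, unlike the aged plates with few cells and the 1 neonatal plate here. Tools were pandas 2.3.3, numpy 2.4.6, matplotlib 3.10.9 and scipy 1.17.1 under Python 3.11.15, and edgeR 4.0.16 in R 4.3.3 for the TMM alternative.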

Additional observations from a re-analysis of the deposited data

Results flagged for a closer look

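Reads of the members also lay in wells of under 500 genes, which entered neither set of wells in the report. There were 329 wells of under 500 genes, 23 of them neonatal and 84 from 2 months, the rest aged. More than 3 reads were found in 21 of them for Cxcl12, 6 for Vcam1, 4 each for Foxc1, Lepr and Kitl, 3 for Ebf1 and 2 each for Ebf3 and Esm1. Most were aged wells: 21 of the aged ones held Cxcl12 reads, 130819 in all and 58111 in the fullest well. The aged wells of this kind held 12404 Ebf1 reads, 12370 of them in 1 well, and 11883 Kitl reads, 10856 of them in 1 well. None of the 23 neonatal wells held a read of any member.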

How the results depend on the processing

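The calls depended most on which wells were used. For 24 months against 2 months, 1 member was higher and 0 were lower. The count became 4 higher in wells of at least 500 genes (beside 3.24% of genes) and with no cell filter (3.83%). In cells of at least 2000 genes and 200000 reads, with 1 aged cell left, 0 were higher (beside 13.6%) and 2 lower (beside 70%). In wells of 500 to under 1000 genes 2 were higher (beside 7.67%). Leaving out 1 plate gave 1 to 5 higher (beside 1.84% to 4.29%) and 0 to 1 lower (beside 31.1% to 48.1%). The count of 5 came without plate 12. For postnatal day 3 against 2 months, the 4 higher became 1 with at least 500 genes (beside 27.6% of genes) or no filter (27.5%). The count was 1 with 1000 to 1700 genes (24.3%) or 500 to under 1000 genes (23.7%). With a limit of 50 CPM it was 2 (27.4%). The 1 lower became 3 with a limit of 1 CPM (beside 10.1%) and 0 in wells of 500 to under 1000 genes (10.5%). Leaving out a 2-month plate there gave 4 higher each time (beside 24.9% to 38.8%) and 0 to 2 lower (beside 13% to 19.2%). For 24 months against postnatal day 3, the 1 higher became 5 with 500 genes (beside 6.37% of genes) and 0 with 2000 genes (12.7%). It became 7 with no filter (7.61%) and 6 with 500 to under 1000 genes (19.6%). The 0 lower became 1 with 500 genes (beside 37.3%), no filter (36%) or a 1 CPM limit (61.4%). With 2000 genes, where 1 aged cell was left, 4 were lower, beside 81%. Left-out plates gave 1 to 6 higher (beside 5.41% to 5.58%) and 0 to 2 lower (beside 61.9% to 63.7%). Plates were also left out in wells of at least 500 genes. For 24 against 2 months, 4 to 6 were then higher (beside 4.18% to 8.12% of genes) and 0 lower (beside 19% to 30%). For postnatal day 3 against 2 months, 1 to 4 were higher (beside 25% to 37.5%) and 1 to 2 lower (beside 14.1% to 19.2%). For 24 months against postnatal day 3, 5 to 7 were higher (beside 10.8% to 12.3%) and 1 lower (beside 44.5% to 48%). Equal weight per cell gave 2 lower for postnatal day 3 against 2 months (beside 11.8%). Plate 9 is the only neonatal plate and could not be left out.

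Called folds that changed sign: the log2 fold of Ebf1 at 24 months was −0.93 over 2 months and −7.58 over postnatal day 3 in cells of at least 2000 genes, where 1 aged cell was left, and that of Ebf2 at postnatal day 3 was −0.032. At postnatal day 3 over 2 months, Ebf1, Cxcl12 and Kitl were at −0.43, −1.40 and −2.94 with 500 genes. With no filter they were at −0.27, −1.25 and −2.78. In wells of 500 to under 1000 genes they were at −8.59, −10.11 and −8.17, with Ebf2 at −3.00 and Foxc1 at 2.56. The 4 neonatal wells there held 0 reads of Ebf1, Cxcl12, Kitl and Ebf2, so the size of these negative folds depends on the added 1 CPM. Against a neonatal limit of 3 counts, 4.93 CPM, the 2-month means were 77.97, 223.6 and 58.1 times higher for Ebf1, Cxcl12 and Kitl. For Ebf2 this was 1.42 times, under the 2-fold limit, so its change of sign is not a measured difference. With 1000 to 1700 genes Ebf1 was at −5.68 and Kitl at −3.45. Beyond the number of cells left, the cause was not tested. The share with Cxcl12 was 16.2% at 2 months when not thinned, and 0 at 24 months with 2000 genes (0 of 1) and at postnatal day 3 in wells of 500 to under 1000 genes (0 of 4). The share of Ebf1 cells with Cxcl12 was 0 at 2 months with 2000 genes (0 of 1), and 66.7% at 2 months and 71.4% over all ages in wells of 500 to under 1000 genes. The median of 1 member per cell became 0 at postnatal day 3 with 1000 to 1700 genes, at least 5 counts or 500 to under 1000 genes, at 2 months with no filter, at least 2 or 5 counts or 500 to under 1000 genes, and at 24 months with 2000 genes. No paired analysis was possible because the result comes from no test and an age is 1 sample.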
